A study of Mus musculus with 30 samples.

Results

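The effect of a β2 adrenergic agonist by itself, before any bacterial stimulus, was measured in mouse bone marrow-derived macrophages. The agonist was metaproterenol hemisulfate (MPH), given at 1 µM for 2 h. The cells came from wild-type C57Bl/6 bone marrow, grown out with the macrophage growth factor M-CSF. The comparison used the 0 h libraries, which had received no LPS: MPH cultures M2, M3 and M4 against cultures D3, D4, D5 and D6 given the vehicle DMSO for the same 2 h. These are 7 of the 30 RNA-sequencing libraries of the series. The other libraries are 1 h and 2 h after LPS, labelled as 100 ng/µL, or come from 3 further DMSO cultures, UKD, r1 and r2. Libraries were chosen by their labels, and no measured value entered the choice. The labels do not say whether cultures came from separate animals, so unpaired p-values measure the spread between these cultures, which may be technical in part. The paired p-values given below leave out the level of each pair and measure how the MPH difference varied over 3 pairs. Values of sex-linked genes, given below, show only that the cultures did not all come from 1 animal.

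The β2 adrenergic receptor couples to the stimulatory G protein Gs, which activates adenylyl cyclase and raises cyclic AMP (cAMP). Cyclic AMP activates protein kinase A (PKA) and the exchange factor EPAC. PKA phosphorylates the transcription factor CREB and, by restraining the salt-inducible kinases, frees the CRTC coactivators of CREB. In macrophages this pathway is known for a fast immediate-early response, for feedback through phosphodiesterases that degrade cAMP, and for holding back several inflammatory mediators.

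Estimated depth was 35900000, 16000000 and 59500000 reads in M2, M3 and M4, and 18600000 to 57900000 reads in D3 to D6. Values are the authors' RPKM (reads scaled by transcript length and by sequencing depth), 1 transcript per gene symbol, analysed as log2(RPKM + 0.5), on which folds of low genes are understated. Cultures varied in pairs: the deviations of M2 from the MPH mean and of D3 from the DMSO mean correlated across 9792 genes at 0.88, those of M3 and D4 at 0.91, and those of M4 and D5 at 0.9. Other combinations of an MPH and a DMSO culture lay between -0.64 and 0.47. Xist, the RNA of the inactive X chromosome, stood at 15.6 RPKM in M3 and 19.8 RPKM in D4, and at 0.003 RPKM or less in the other 5 libraries. The Y-linked genes Ddx3y, Kdm5d and Eif2s3y were at 0.0356 RPKM or less in M3 and D4 and at 2.02 RPKM or more in the other 5 libraries. This is a female pattern in M3 and D4 and a male pattern in the other 5 libraries. The pairing is read from the data and not from the labels, whose culture numbers point to other partners, so every paired p below takes it as given. Difference means MPH minus DMSO on the log2 scale throughout. The 1 h library labelled M4 was above all 4 DMSO libraries in 12 of the 69 genes that rose at 0 h, where M2 and M3 were above them in 59 and 60. It enters the 0 h comparison only through the shared estimate of spread.

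The limma fit of all 21 D and M libraries took 7 cultures at 3 times each, with no term for culture or pair. It treats the 3 libraries of a culture as independent, which they are not. In that fit 69 of 10239 genes (0.674%) rose with MPH and 20 (0.195%) fell, at an adjusted p under 0.05. Of these 89 genes, 75 differed at least 2-fold. For each of the 89 the 3 MPH values lay outside the range of the 4 DMSO values, as they did above it for 3.56% and below it for 3.98% of all tested genes. Where the groups do not overlap, all 3 pairs must move in the same direction, so their direction adds nothing. The cultures UKD, r1 and r2 were not used in that fit. Set beside all 7 DMSO cultures, the MPH values were outside the DMSO range for 68 of the 69 rises, all but Gpn3, and for all 20 falls. These genes were already outside the range of D3 to D6, and the share of all tested genes outside all 7 was not computed. The count was 76 without the 0 h library of D3, 45 without D4, 57 without D5, 49 without D6, 38 without M2, 48 without M3, 36 without M4, and 165 without the 1 h library labelled M4. Without both D4 and M3, the cultures with Xist RNA, it was 18, a choice made after seeing the data. Called in the full fit and in each of the 7 fits that left out a 0 h library were 28 genes. The 22 that rose were Ankrd33b, Btg2, Cass4, Cd14, Dgat1, Dusp5, Fosb, Fosl2, Gpr132, Grasp, Nr4a2, Nuak2, Pde4b, Plaur, Rgcc, Sik1, Trib1, Tsc22d3, Vegfa, Zcchc14, Zfp36 and Zfp516, and the 6 that fell were B3gnt2, Kcnj2, Plau, Rap2b, Rasgef1b and Zeb2.

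The paired fit, which removes the level of each pair, called far more genes. Of 9660 genes, 816 rose (8.45%) and 1334 fell (13.8%), the background for every paired list count below. Of the 89 genes above, 88 were among those called, which is no independent support, since both differences rest on the same 0 h libraries apart from D6. The remaining one, P2ry1, did not pass the filter on low values there. Most paired calls were small, with a median size of 0.38 against 1.61 for the 89 genes, and 123 rises and 51 falls reached 2-fold. The excess of falls depends on scaling: after median-of-ratios scaling 1040 genes rose and 1064 fell. The count was 2440 without the pair M2-D3, 1606 without M3-D4 and 987 without M4-D5. Over the 69 risen genes, which were called on these same cultures, the mean difference was 1.84 in M2-D3, 2.01 in M3-D4 and 1.83 in M4-D5, and over the 20 fallen genes it was -1.43, -1.56 and -1.44. The pair M3-D4 gave the largest difference for 37 of the 69 rises and 11 of the 20 falls.

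**Figure D1:**
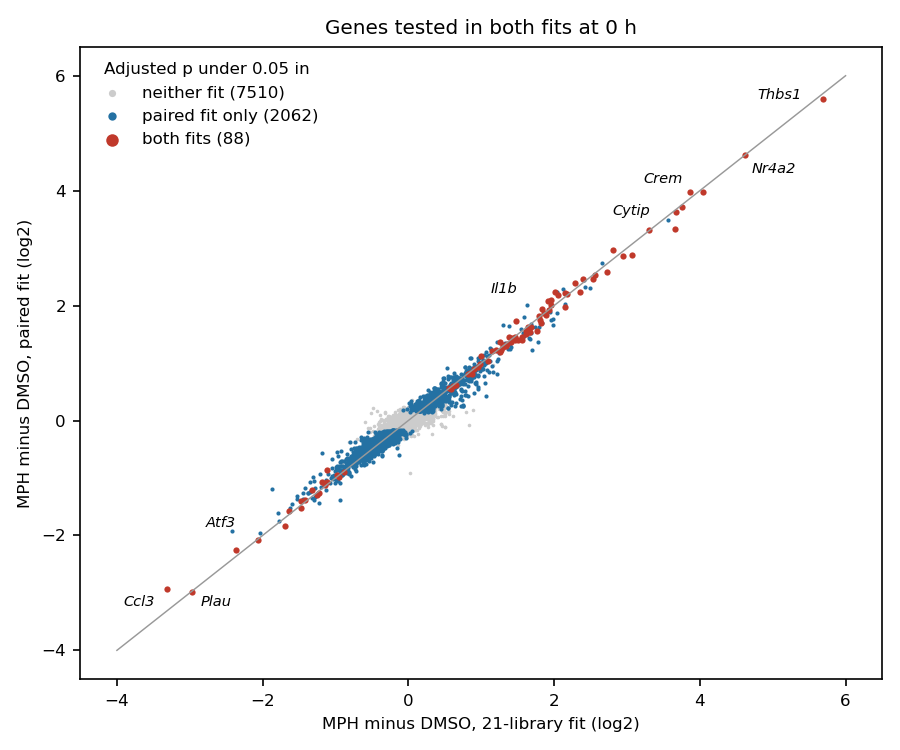
Each point is a gene tested in both fits, with the MPH minus DMSO difference (log2) of the 21-library fit on the x axis and of the paired fit on the y axis. Points lie along the grey line of equality, so the fits differ in how many genes pass (88 pass in both) more than in the size of the estimates.

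The β1 and β3 adrenergic receptor genes did not pass the filter on low values: Adrb1 reached at most 0.0498 RPKM with MPH and 0.337 RPKM with DMSO, and Adrb3 at most 0.0223 and 0.0192 RPKM.

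Of 8 tested genes for Gs-coupled and related receptors, 2 rose, 2 fell and 4 did not pass, and the list's median difference was 0.14, against -0.04 over all tested genes. Adora2b, the adenosine A2B receptor that also raises cAMP, stood at 5.23, 12.6 and 7.28 RPKM with MPH, against 0.796, 1.23, 0.82 and 0.874 RPKM with DMSO (difference 2.56, SE 0.48, adjusted p = 0.0118). Gpr132, a receptor of the proton-sensing family, had 9.13, 19.0 and 9.10 RPKM with MPH and 1.44, 2.79, 1.17 and 1.37 RPKM with DMSO (2.53, SE 0.40, adjusted p = 0.00383). Both were highest in the Xist-positive culture of each group. Ptger4, the EP4 prostaglandin E2 receptor and another activator of cAMP synthesis, moved the other way. It fell to 0.427, 0.401 and 0.386 RPKM with MPH, against 3.16, 3.34, 1.85 and 1.68 RPKM with DMSO (-1.69, SE 0.31, adjusted p = 0.00866). The acid-sensing receptor Gpr65 rose in the paired fit only (0.67, SE 0.14, adjusted p = 0.0131).

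Downstream of the receptor the signalling core moved little. None of 17 genes for G proteins, adenylyl cyclases, PKA and EPAC passed in the 21-library fit (limma, median -0.02). Rapgef3 was nearest (0.63, adjusted p = 0.67). In the paired fit 4 of 17 rose and 2 fell, against 8.45% and 13.8% of all genes. The rises were Rapgef3, which encodes EPAC1 (0.75), the cyclase gene Adcy7 (0.29), the PKA regulatory subunit gene Prkar1a (0.26) and the catalytic subunit gene Prkaca (0.18). The falls were Gnai3, an inhibitory G protein (-0.27), and the PKA anchor Akap13 (-0.34). Akap10, another PKA anchoring protein, which is outside the list and was picked after its values were seen, stood at 4.41, 3.86 and 4.33 RPKM with MPH and 7.83, 9.51, 8.31 and 9.41 RPKM with DMSO (-0.98, SE 0.19, adjusted p = 0.0129). None of 15 desensitisation genes passed in the 21-library fit (limma, median -0.05), with Gng4 nearest (1.83, adjusted p = 0.208). Within pairs 2 of 12 rose, the G protein regulator Rgs1 (0.83) and the γ subunit gene Gng4 (1.69), and 4 fell, the G protein regulators Rgs18 (-0.40), Rgs14 (-0.33) and Rgs19 (-0.27) and the β-arrestin gene Arrb2 (-0.20), whose call median-of-ratios scaling ended.

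Phosphodiesterases, the enzymes that break cyclic nucleotides down, form the feedback arm of the pathway. Of 10 tested genes Pde4b and Pde4d rose, both cAMP-specific, and 8 did not pass (median 0.37). Pde4b had 12.8, 15.2 and 5.95 RPKM with MPH, against 0.808, 1.93, 0.585 and 0.741 RPKM with DMSO (2.94, SE 0.31, adjusted p = 8.23e-05). Pde4d had 2.68, 1.86 and 1.34 RPKM with MPH and 0.321, 0.145, 0.182 and 0.0991 RPKM with DMSO (1.81, SE 0.33, adjusted p = 0.00996). Every MPH value of both genes was at least 3-fold above the highest DMSO value. The 5 lines for Pde4b with enough signal gave differences of 2.83 to 2.94, close to each other.

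Within pairs more of the family moved. Of 10 genes 6 rose and 1 fell in the paired fit, with a median of 0.32 against -0.03 over all genes. Besides Pde4b and Pde4d these were Pde3b (1.57, SE 0.18), Pde2a (0.68, SE 0.07), Pde7b (0.34, SE 0.08) and Pde8a (0.31, SE 0.07). Pde3b, whose enzyme is inhibited by cyclic GMP, had 4.42, 3.68 and 3.65 RPKM with MPH and 2.00, 0.780, 0.514 and 0.376 RPKM with DMSO. Pde2a, whose enzyme cyclic GMP stimulates, ran at 8.44, 4.69 and 3.82 RPKM with MPH against 5.41, 2.67, 2.12 and 1.31 RPKM with DMSO, so its groups overlapped while every pair rose. The calmodulin-dependent Pde1b fell slightly (-0.26, SE 0.07, adjusted p = 0.0329), a call that median-of-ratios scaling removed. Pde4a (-0.14), Pde7a (-0.05) and Pde12 (-0.26) passed in neither fit. Despite its name, Pde12 does not encode an enzyme for cyclic nucleotides, and the counts of 10 genes and the medians include it.

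**Figure D2:**
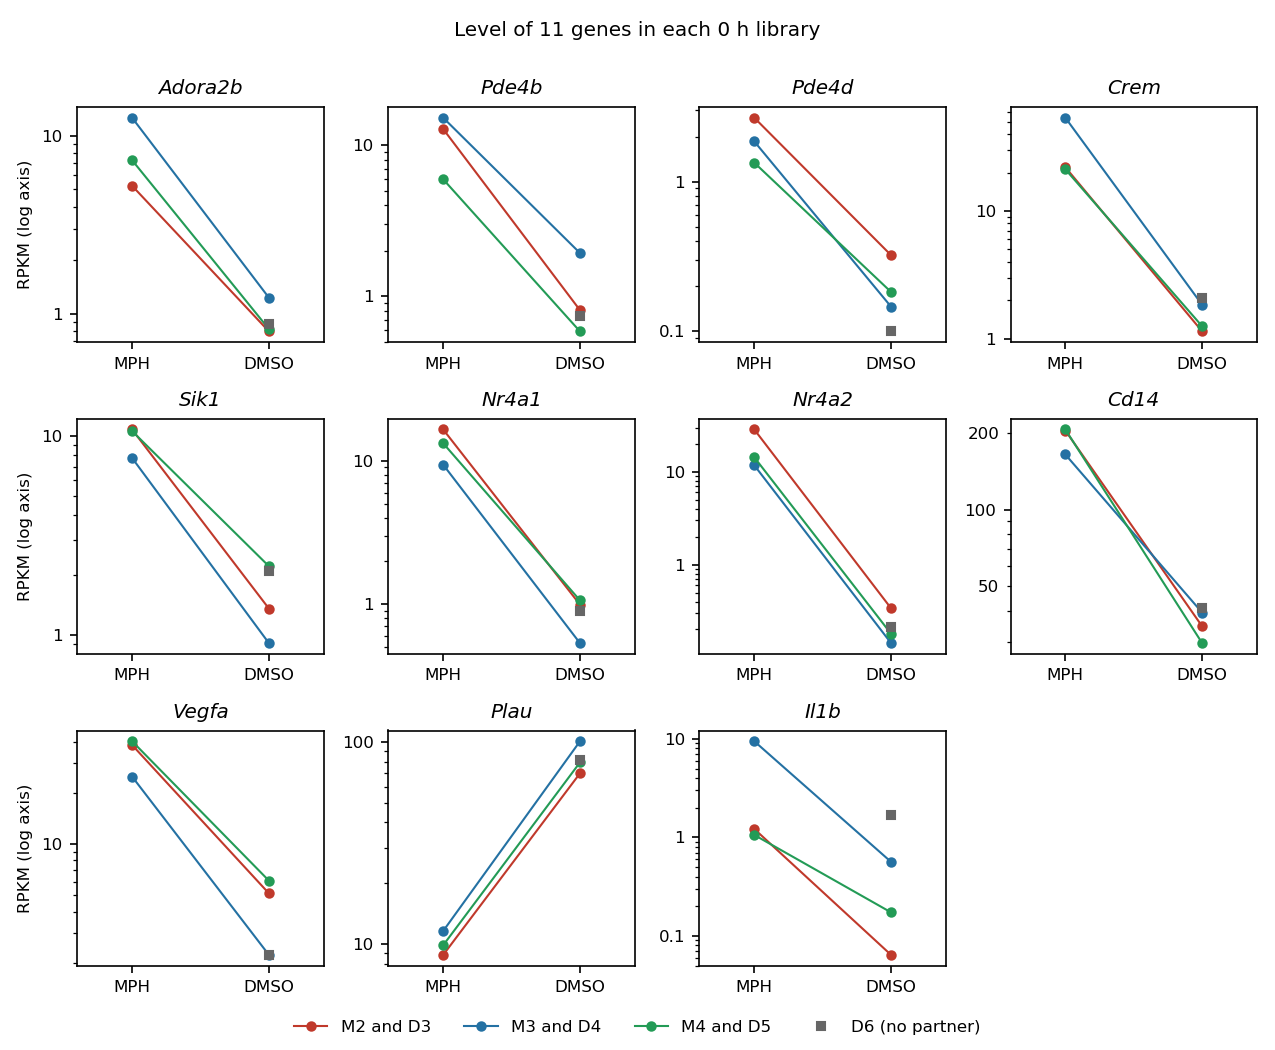
RPKM of 11 genes in each 0 h library on log axes, MPH cultures left and DMSO cultures right, with lines joining the cultures that deviated together (M2 with D3, M3 with D4, M4 with D5) and a grey square for D6. The lines run nearly parallel for most genes; Il1b is the gene whose groups overlap, with D6 at 1.67 RPKM above M2 and M4.

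Of 18 genes for CREB family factors, CRTC coactivators and salt-inducible kinases and their relatives, 4 rose, 0 fell and 14 did not pass (median 0.11). Crem, which produces the cAMP-inducible repressor ICER, stood at 22.0, 53.7 and 21.2 RPKM with MPH, against 1.14, 1.84, 1.25 and 2.08 RPKM with DMSO. The difference was 3.87 (SE 0.80, adjusted p = 0.0243), but the call was lost when any 1 of the 7 libraries was left out. The paired fit gave 3.98 (SE 0.15, adjusted p = 2.3e-06), and the 17 Crem transcript lines with enough signal ran from 3.32 to 3.87. The table does not separate ICER from the other Crem products here. Sik1, a salt-inducible kinase that opposes CRTC and is itself a CREB target, had 10.8, 7.77 and 10.6 RPKM with MPH and 1.36, 0.912, 2.22 and 2.10 RPKM with DMSO (2.29, SE 0.26, adjusted p = 0.000127). Nuak2, a related kinase gene, had 20.3, 17.3 and 18.4 RPKM with MPH and 5.88, 4.16, 4.38 and 4.88 RPKM with DMSO (1.85, SE 0.19, adjusted p = 5.41e-05). Trib1, a Tribbles pseudokinase gene, had 6.03, 5.45 and 4.44 RPKM with MPH and 1.81, 0.951, 0.8 and 1.26 RPKM with DMSO (1.79, SE 0.29, adjusted p = 0.0044).

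The factors that carry the cAMP signal were steadier. Creb1 stood at 2.39, 3.62 and 1.98 RPKM with MPH and 2.94, 3.55, 2.13 and 3.25 RPKM with DMSO (-0.15, SE 0.29). Crtc1 (0.12), Crtc2 (0.10), Sik2 (0.14), Creb3 (-0.19), Creb3l2 (0.08), Creb5 (0.28), Crebzf (-0.26), the histone acetyltransferase genes Crebbp (0.05) and Ep300 (-0.14), and Trib3 (0.10) passed in neither fit. In the paired fit Sik3 (0.59, SE 0.10) and Crtc3 (0.64, SE 0.11) rose, and Atf1, a CREB relative, fell (-0.28, SE 0.06).

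The NR4A orphan receptors, immediate-early transcription factors induced by cAMP in many cell types, were higher with MPH in all 3 cases, and 2 of the 3 passed the test (median 3.30). Nr4a2 stood at 28.7, 11.8 and 14.4 RPKM with MPH, against 0.337, 0.142, 0.179 and 0.213 RPKM with DMSO (4.62, SE 0.62, adjusted p = 0.000659). Nr4a1 stood at 16.6, 9.42 and 13.3 RPKM with MPH, against 0.990, 0.533, 1.06 and 0.890 RPKM with DMSO (3.30, SE 0.65, adjusted p = 0.017). Nr4a3 had 1.72, 1.51 and 0.959 RPKM with MPH and 0.0279, 0.0533, 0.0383 and 0.00965 RPKM with DMSO, a difference of 1.81 (SE 0.51, adjusted p = 0.148) that did not pass. All 3 genes were highest in M2.

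Promoters of these genes were examined for the letters that CREB family proteins bind, since the genes moved together. RefSeq promoter windows (250 bases before to 50 after the start, GRCm38.p6, a build other than that of the counts) matched 52 of the 69 risen and 16 of the 20 fallen genes. Among the risen genes without a window, and so not searched, were Crem, Sik1, Nuak2, Trib1, Thbs1, Osm and Cd14. The full cAMP response element TGACGTCA, searched on both strands, was in 1 of the 52 (1.92%), that of Btg2, in 0 of the 16, and in 3.73% of the 8294 tested genes with a window. The half-site TGACG, which the full element contains and which other bZIP factors also bind, was in 25 of the 52 (48.1%), in 4 of the 16 and in 37.5% of the tested genes. Genes of the paired fit that changed at least 2-fold had it in 51.2% of 86 risen and 28.9% of 38 fallen genes. The AP-1 letters TGANTCA were in 5.77% of the risen genes and 6.12% of the tested genes, and the NR4A letters AAAGGTCA in 0 of the risen and 1.12% of the tested genes. The share of all 32851 windows, each 300 bases long, was 1.79% for the full element, 20.8% for the half-site, 7.81% for TGANTCA and 1.51% for AAAGGTCA. These are matches of letters in short windows, with no test, and no match says only that the letters are not in that window. Stretches of 120 bases from 7 windows follow, 5′ to 3′ on the gene's strand, with half-sites (read on either strand) in capitals. They are shown because these are cAMP feedback and immediate-early genes that rose and hold a half-site, the single risen gene with the full element, and a fallen gene that holds a half-site as well.
Nr4a1, chr15:101266726-101266845, plus strand: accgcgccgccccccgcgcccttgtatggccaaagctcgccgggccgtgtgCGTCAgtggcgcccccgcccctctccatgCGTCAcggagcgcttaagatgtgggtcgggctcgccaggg
Nr4a2, chr2:57124004-57124123, minus strand: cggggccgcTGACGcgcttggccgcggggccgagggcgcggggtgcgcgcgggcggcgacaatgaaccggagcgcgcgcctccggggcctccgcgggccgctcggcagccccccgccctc
Fosb, chr7:19310046-19310165, minus strand: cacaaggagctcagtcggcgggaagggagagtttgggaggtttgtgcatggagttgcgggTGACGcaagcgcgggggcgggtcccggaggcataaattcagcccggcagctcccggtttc
Dusp5, chr19:53529025-53529144, plus strand: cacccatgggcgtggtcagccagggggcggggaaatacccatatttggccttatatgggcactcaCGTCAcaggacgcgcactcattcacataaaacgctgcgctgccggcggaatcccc
Pde4b, chr4:102421435-102421554, plus strand: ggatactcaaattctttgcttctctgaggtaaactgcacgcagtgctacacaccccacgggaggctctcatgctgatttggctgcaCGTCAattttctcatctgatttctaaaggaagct
Btg2, chr1:134079226-134079345, minus strand, full element in capitals: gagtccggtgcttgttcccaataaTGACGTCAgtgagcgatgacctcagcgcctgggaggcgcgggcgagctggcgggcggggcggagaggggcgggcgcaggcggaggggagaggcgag
Rasgef1b, chr5:99252928-99253047, minus strand, a gene that fell: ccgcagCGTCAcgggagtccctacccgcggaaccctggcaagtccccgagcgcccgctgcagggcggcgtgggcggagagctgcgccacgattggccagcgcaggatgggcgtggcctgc
Nr4a1 held 2 half-sites, 69 and 40 bases before the start, and the single half-sites of Dusp5 and Fosb lay 55 and 60 bases before it. Pde4b has 4 windows, for 4 starts, and the stretch shown, with a half-site 34 bases before its start, was the only one of the 4 stretches to hold one.

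Of 13 tested AP-1 genes 2 rose and 11 did not pass (median 0.62). Fosb stood at 14.9, 4.97 and 6.23 RPKM with MPH, against 0.299, 0.127, 0.101 and 0.0887 RPKM with DMSO (3.67, SE 0.55, adjusted p = 0.00209). Fosl2, encoding Fra-2, stood at 69.7, 48.1 and 45.9 RPKM with MPH, against 5.73, 2.47, 3.33 and 3.18 RPKM with DMSO (3.75, SE 0.44, adjusted p = 0.000146). In the paired fit Fos (2.03, SE 0.14), Junb (1.80, SE 0.11), Jdp2 (1.08), Jund (0.74) and Maff (0.54) rose as well. Atf3 (-1.95, SE 0.12), Jun (-0.62, SE 0.06) and Mafg (-0.49) fell. Atf3, a stress-induced repressor of inflammatory genes, had 12.2, 9.62 and 12.9 RPKM with MPH and 35.1, 44.4, 61.3 and 58.3 RPKM with DMSO. Its groups did not overlap, although the 21-library fit left it just short (-2.04, adjusted p = 0.0574). Genes named from the paired fit alone, here and below, were picked after their values were seen.

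Of 12 genes in the Egr and Ier list, Ier3, Btg1 and Btg2 rose and 9 did not pass (median 0.35), and 7 of 10 rose and 1 fell in the paired fit. Ier3, an NF-kB and ERK feedback gene, had 8.59, 16.3 and 18.6 RPKM with MPH and 1.98, 3.15, 3.79 and 4.73 RPKM with DMSO (1.92, SE 0.40, adjusted p = 0.0271). Btg2, an anti-proliferative partner of mRNA deadenylases, had 10.3, 11.2 and 5.09 RPKM with MPH and 1.24, 1.80, 1.21 and 2.93 RPKM with DMSO (2.02, SE 0.26, adjusted p = 0.000354). Ier2 rose in the paired fit (1.65, SE 0.11), and Ier5 fell (-0.54, SE 0.08). The MAPK phosphatases went both ways. Dusp5, specific for nuclear ERK, had 24.5, 16.0 and 16.5 RPKM with MPH and 1.18, 0.436, 0.630 and 0.533 RPKM with DMSO (4.04, SE 0.51, adjusted p = 0.000339), the only one of 15 genes to pass. The paired fit added rises of Dusp1 (2.44, SE 0.08) and Dusp2 (0.45, SE 0.12). It also called falls of Dusp4 (-1.32), Dusp7 (-1.17), Dusp16 (-0.58) and the ERK pathway inhibitors Spry2 (-0.65) and Spred1 (-1.16).

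Factors that destabilise inflammatory mRNA rose in part. Of 15 genes Zfp36, Btg1 and Btg2 rose and 12 did not pass (median -0.07), and in the paired fit 5 of 14 rose and 2 fell. Zfp36, which encodes tristetraprolin, the protein that targets Tnf mRNA for decay, had 37.7, 27.8 and 45.2 RPKM with MPH and 7.46, 7.87, 9.07 and 12.1 RPKM with DMSO (1.95, SE 0.26, adjusted p = 0.000659). Zc3h12a, the nuclease regnase-1, rose in the paired fit (1.04, SE 0.12) and its relative Zc3h12d fell (-1.35, SE 0.11).

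**Figure D3:**
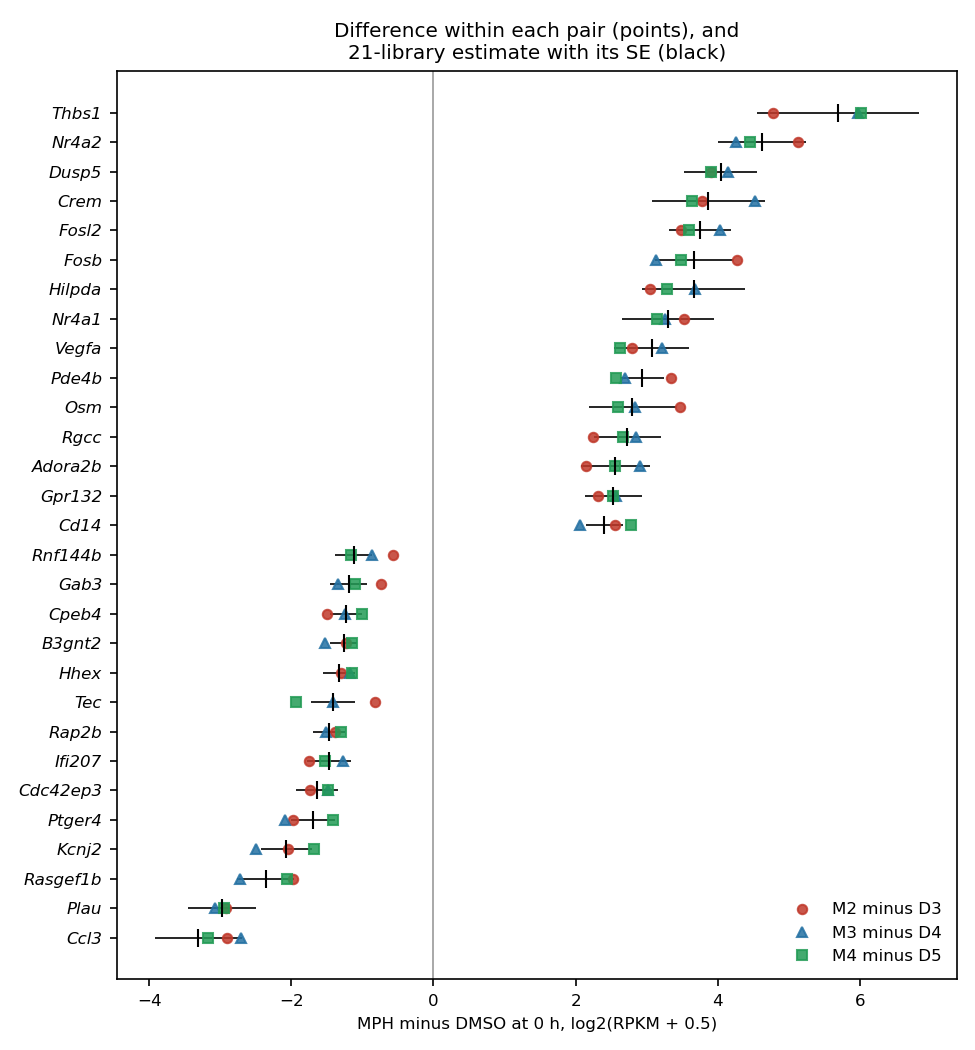
MPH minus DMSO differences on the log2(RPKM + 0.5) scale (x axis) for 29 genes past the threshold (y axis), the 15 that rose most and 14 of those that fell most, with a coloured point for each pair and the 21-library estimate with its SE in black. All 3 points of every gene lie on 1 side of 0, which follows from choosing genes without overlap between groups. The points are single differences and the SE is that of a mean difference, so their widths are not compared.

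The list of 12 thrombospondin, angiogenic and repair factor genes had 2 rises, Vegfa and Thbs1, and a median of 0.15, with 10 members short of the threshold. Thbs1 encodes a matrix protein that inhibits angiogenesis and activates TGF-β. It stood at 292, 380 and 189 RPKM with MPH, against 10.1, 5.51, 2.42 and 3.93 RPKM with DMSO. UKD, r1 and r2 were lower still, at 0.577, 1.63 and 0.414 RPKM. The difference of 5.69 (SE 1.14, adjusted p = 0.0199) was the largest among the 89 genes, and the pairs gave 4.78, 5.98 and 6.02. Leaving out 1 library ended its call in 6 of 7 cases, while the paired fit gave 5.60 (SE 0.21, adjusted p = 2.03e-06). Vegfa, the angiogenic growth factor, stood at 38.2, 24.9 and 40.2 RPKM with MPH, against 5.11, 2.22, 6.07 and 2.22 RPKM with DMSO (3.07, SE 0.53, adjusted p = 0.00632). Igf1 (-0.31) and Pdgfb (-1.38) fell in the paired fit.

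The cytokine list hid opposite movements behind a median of 0. Of 17 genes Osm rose and 16 did not pass. Osm, encoding oncostatin M of the IL-6 family, had 23.3, 12.8 and 15.3 RPKM with MPH and 1.65, 1.37, 2.11 and 2.93 RPKM with DMSO (2.80, SE 0.61, adjusted p = 0.0357). Tnf had 1.48, 3.92 and 4.98 RPKM with MPH and 7.46, 17.4, 9.11 and 17.6 RPKM with DMSO. It did not pass in the 21-library fit (-1.79, adjusted p = 0.0792) and fell in the paired fit (-1.61, SE 0.21, adjusted p = 0.00117). Il1b had 1.22, 9.48 and 1.06 RPKM with MPH, against 0.0640, 0.563, 0.173 and 1.67 RPKM with DMSO. Only M3 lay above all DMSO cultures, and the difference of 1.63 gave an exact permutation p = 0.114. Each MPH culture was above its own partner, by 1.61, 3.23 and 1.21, and the paired fit called Il1b (2.02, SE 0.32, adjusted p = 0.00338). Ptgs2, the inducible cyclooxygenase that starts prostaglandin E2 synthesis, had 4.26, 3.98 and 1.49 RPKM with MPH and 0.201, 0.4, 0.152 and 0.759 RPKM with DMSO. Its paired difference was 2.23 (SE 0.19, adjusted p = 0.000157), against 2.04 (adjusted p = 0.0717) in the 21-library fit. It had the smallest p of 14 prostaglandin and leukotriene genes, none of which passed there (limma, median -0.12). Within pairs 1 of 13 rose and 3 fell, against 8.45% and 13.8% of all genes.

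Chemokine genes fell where they passed in the 21-library fit. Ccl3 stood at 0.388, 2.44 and 2.61 RPKM with MPH, against 6.14, 18.7, 27.4 and 43.8 RPKM with DMSO (-3.31, SE 0.61, adjusted p = 0.0107), and the other 16 tested members did not pass. The RefSeq annotation has Ccl3 and Ccl4 overlapping, and whether counting used strand is unknown. The paired fit called 5 of 11 lower: Ccl3 (-2.93), Ccl4 (-1.93), Ccl7 (-1.44), Ccl2 (-1.33) and Cxcl10 (-0.52). Cx3cl1 rose (1.24, SE 0.13). The monocyte chemokine Ccl2 varied widely between cultures, at 7.09, 92.7 and 37.8 RPKM with MPH and 33.8, 151, 82.1 and 65.4 RPKM with DMSO, so only the pairs show its fall. Median-of-ratios scaling left 4 falls and 2 rises in this list.

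In the IL-1 family and inflammasome list Il1r2 rose and 16 of 17 genes did not pass (median -0.02). Il1r2, the decoy receptor that traps IL-1, had 2.68, 5.72 and 1.94 RPKM with MPH and 0.317, 0.317, 0.203 and 0.0470 RPKM with DMSO (2.35, SE 0.55, adjusted p = 0.0498). It is just inside the threshold, and median-of-ratios scaling, like every fit with a library left out, ended the call. Within pairs Il1b, Il1r2, Nlrp3 (0.37) and Il1rn (0.30) rose. The falls of Aim2 (-0.52), Casp1 (-0.31), Nlrp1b (-0.30) and Pycard (-0.22) were small, and scaling left 1 of these 4. In a list of genes linked to regulatory macrophages Il1r2 rose and 11 of 12 did not pass (median 0.59). Of the 11 in the paired fit 7 rose, 0 fell and 4 did not pass (median 0.43). Among the rises were Trem1 (2.32, SE 0.15), the ornithine decarboxylase gene Odc1 (1.87, SE 0.24), Tnfsf14 (0.94) and Il4ra (0.66). Trem1 is not particular to such macrophages, and the list does not define a regulatory state.

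Urokinase and its receptor moved in opposite directions. Plau, which encodes the protease urokinase, fell to 8.83, 11.6 and 9.86 RPKM with MPH, against 70.1, 101, 79.4 and 81.8 RPKM with DMSO (-2.98, SE 0.48, adjusted p = 0.0044). Its 3 pair differences lay between -3.07 and -2.92. Plaur, the urokinase receptor, stood at 67.5, 75.1 and 80.5 RPKM with MPH, against 27.2, 23.4, 30.6 and 19.8 RPKM with DMSO (1.55, SE 0.26, adjusted p = 0.00632). Thbd, the anticoagulant thrombomodulin, had 11.2, 8.25 and 8.63 RPKM with MPH and 1.35, 1.70, 1.95 and 2.59 RPKM with DMSO (2.05, SE 0.41, adjusted p = 0.0188). The other 15 of 18 tested members did not pass.

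For LPS sensing, Cd14 and the Toll-like receptors parted. Cd14, the co-receptor that hands LPS to TLR4, stood at 205, 165 and 207 RPKM with MPH, against 34.7, 39.3, 29.8 and 40.9 RPKM with DMSO (2.40, SE 0.26, adjusted p = 8.25e-05), the only one of 23 genes to pass. The list's median was -0.28. Within pairs 4 of 22 rose and 11 fell, and 5 rose and 10 fell after median-of-ratios scaling. Tlr4 itself had 2.89, 6.25 and 3.02 RPKM with MPH and 6.55, 9.18, 4.45 and 8.35 RPKM with DMSO (paired -0.69, SE 0.11, adjusted p = 0.00356). Its partner gene Ly96 fell by 0.35 (SE 0.07). Tlr13 (-0.93), Tlr7 (-0.79), Tlr1 (-0.70), the B-cell and macrophage receptor Cd180 (-0.61), Tlr6 (-0.35), Tlr8 (-0.32) and the adaptors Ticam1 (-0.63) and Myd88 (-0.23) fell too. Tlr2 (0.70, SE 0.11), the adaptor Ticam2 (0.87, SE 0.11) and the kinase Irak2 (0.34) rose.

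NF-kB genes were divided. None of 20 passed in the 21-library fit (limma), and Nfkbie, which encodes an inhibitor of NF-kB, had the smallest p (1.55, SE 0.40, adjusted p = 0.0909). Within pairs 6 of 19 rose, including Bcl3 (1.67, SE 0.10), Nfkbie (1.59), Nfkb2 (0.73) and Relb (0.49), and 4 fell, including Map3k8 (-0.69) and Nfkbia (-0.40). Among 32 interferon-stimulated genes Ifi207 fell (-1.47, SE 0.31, adjusted p = 0.0307) and 31 did not pass. Ifi207 has close relatives among which reads can be split, so its value is uncertain. Within pairs 3 of 17 rose, Isg15 (0.44), Irf7 (0.29) and Irf5, and 5 fell. Levels of some of these genes also differed between cultures: Isg15 was at 53.2 RPKM in M3 and 43.7 RPKM in D4 and at 7.32 RPKM or less elsewhere, and Irf7 at 70.3 and 66.2 RPKM in M3 and D4.

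Transcription factors of the macrophage lineage were the list with the largest share of falls in the paired fit. Of 19 genes 2 fell in the 21-library fit and 17 did not pass, with a median of -0.58. The paired fit had 14 falls and 1 rise, or 13 and 1 after median-of-ratios scaling, against 13.8% falling among all genes. Zeb2, a repressor needed for macrophage identity, had 9.93, 7.62 and 8.76 RPKM with MPH and 21.5, 16.9, 15.3 and 16.2 RPKM with DMSO (-0.95, SE 0.16, adjusted p = 0.0044). An overlapping antisense gene, Zeb2os, averaged 5.11 RPKM with MPH and 6.08 RPKM with DMSO, and reads of the 2 cannot be told apart without strand. Hhex, a homeobox gene, had 3.18, 3.62 and 4.23 RPKM with MPH and 8.58, 8.79, 9.98 and 12.9 RPKM with DMSO (-1.33, SE 0.23, adjusted p = 0.00632). The paired falls included Pparg (-1.07), Maf (-0.94), Irf8 (-0.85), Etv5 (-0.67), Bhlhe41 (-0.66), Tfec (-0.66), Mitf (-0.49) and Runx1 (-0.31). Ets2 rose (0.35). Runx3, outside the list and picked after its values were seen, had 22.7, 11.7 and 13.7 RPKM with MPH and 4.37, 1.97, 2.96 and 3.15 RPKM with DMSO (2.17, SE 0.49, adjusted p = 0.0435).

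None of 15 C/EBP and Krüppel-like factor genes passed in the 21-library fit (limma), and Klf4 had the smallest p (2.49, SE 0.71, adjusted p = 0.152). Within pairs 6 of 14 rose, 3 fell and 5 did not pass. Klf4, a factor of alternative activation, had 35.8, 10.2 and 25.4 RPKM with MPH and 5.34, 1.62, 6.13 and 2.17 RPKM with DMSO (paired 2.31, SE 0.11). Cebpb had 28.0, 48.8 and 120 RPKM with MPH and 6.38, 9.91, 19.4 and 17.8 RPKM with DMSO (paired 2.30, SE 0.09, adjusted p = 3.26e-06), while Cebpa (-0.78, SE 0.08), Klf6 (-0.76) and Cebpg (-0.57) fell. Among 15 Id and SMAD genes none passed in the 21-library fit (limma); Skil, a SMAD repressor, had the smallest p (0.66, adjusted p = 0.835), and 5 rose and 3 fell in the paired fit. None of 16 SOCS and cytokine feedback genes passed either (limma), with Socs6 nearest (-0.69, adjusted p = 0.0656).

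Clock and metabolic genes gave single clear members. Per1, a clock gene with a direct cAMP response, was the only one of 12 clock genes to rise: 6.99, 4.73 and 6.92 RPKM with MPH, against 2.49, 1.87, 2.75 and 2.48 RPKM with DMSO (1.20, SE 0.25, adjusted p = 0.0243). Nfil3 rose in the paired fit (2.74, SE 0.13). Tsc22d3, which encodes GILZ, a protein best known from glucocorticoid action, had 20.6, 31.9 and 22.9 RPKM with MPH and 13.4, 14.1, 11 and 11.8 RPKM with DMSO (0.95, SE 0.16, adjusted p = 0.00632). It was 1 of 14 to pass in its list, and the paired fit added Ddit4 (1.86) and Arrdc3 (1.63). Of 26 glycolysis and hypoxia genes Vegfa rose and 25 did not pass (median 0.06). The paired fit called 3 of 25 higher and 3 lower, near the shares of all genes (8.45% and 13.8%). Besides Vegfa the rises were the glucose transporter gene Slc2a1 (0.79) and Ldha (0.17), and the falls were Slc2a3 (-0.35), another glucose transporter gene, Egln3 (-0.31) and Pdk1 (-0.26).

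Of 16 lipid droplet genes 2 rose and 14 did not pass (median 0.01). Hilpda, an inhibitor of the lipase that empties droplets, had 98.8, 83.7 and 56.8 RPKM with MPH and 11.5, 6.05, 5.39 and 2.62 RPKM with DMSO (3.66, SE 0.73, adjusted p = 0.0172). Dgat1, which catalyses the last step of triglyceride synthesis, had 16.2, 19.3 and 19.0 RPKM with MPH and 5.85, 3.36, 5.34 and 3.92 RPKM with DMSO (1.89, SE 0.31, adjusted p = 0.00466). The list went both ways in the paired fit. Of 14 genes 5 rose, Hilpda, Dgat1, Lpin2 and the lipase genes Pnpla2 and Lipe. The 4 that fell were Plin2, Abhd5, Fabp4 and Acsl1, and scaling ended the call of Acsl1. Of 22 LXR and cholesterol synthesis genes none passed in the 21-library fit (limma). The efflux pump gene Abca1 had the smallest p (1.21, adjusted p = 0.545), and it rose within pairs (0.80, SE 0.18). Within pairs 8 of 21 fell, among them Insig1 (-0.57) and Msmo1 (-0.47), and 6 did after median-of-ratios scaling.

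Cdkn1a, the cell cycle inhibitor p21, had 147, 179 and 155 RPKM with MPH and 73.2, 86.3, 84.0 and 79.7 RPKM with DMSO (0.98, SE 0.17, adjusted p = 0.00728), the only one of 20 cyclin and Myc network genes to pass. Myc fell in the paired fit (-1.04, SE 0.12) and so did Ccnd1 (-0.65), while the Myc antagonist gene Mxi1 rose (1.88, SE 0.19). Of 22 replication and mitosis genes none passed in the 21-library fit (limma, median -0.31), with Cdc20 nearest (-0.81, adjusted p = 0.2). The paired fit had 13 falls and 0 rises, or 12 and 0 after median-of-ratios scaling. The falls ran from -0.78 for Cdc20 to -0.22 for Birc5. The kinase gene Pim1 (1.84, SE 0.32, adjusted p = 0.00655) and the pro-apoptotic Bcl2l11 (1.27, SE 0.29, adjusted p = 0.0476) rose among 18 survival genes. The paired fit had 6 rises and 4 falls of 16: the anti-apoptotic Mcl1 (0.24) and Birc3 (0.31) and the kinase gene Pim3 (0.63) were among the rises, and Bcl2l1, encoding Bcl-xL (-0.79, SE 0.05), among the falls.

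Among ion channels Kcnj2, the inward rectifier Kir2.1 that sets the resting potential, fell to 0.195, 0.263 and 0.210 RPKM with MPH, against 2.37, 3.82, 1.78 and 2.47 RPKM with DMSO (-2.07, SE 0.36, adjusted p = 0.00728). It was the only one of 14 to pass. Of 22 chemokine and lipid mediator receptor genes none passed in the 21-library fit (limma), with Gpr35 nearest (1.35, adjusted p = 0.0626). Within pairs the fractalkine receptor Cx3cr1 (-0.69), Ccr2 (-0.60), C3ar1 (-0.95) and S1pr2 (-1.53) fell, while Ccr1 (0.35) and C5ar1 (0.38) rose. Cd83, a maturation marker, rose alone among 19 co-stimulatory and adhesion genes (1.48, SE 0.33, adjusted p = 0.0371), and the paired fit had 6 rises and 2 falls of 17, with Cd86 (1.04) and Cd80 (0.68) among the rises and Itga5 (-0.51) and Icam1 (-0.22) as the falls; scaling ended the call of Icam1. No member of the heat shock list passed in the 21-library fit (limma, 15 tested); Hsph1 had the smallest p (0.31, adjusted p = 0.67).

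The remaining large changes fell outside the lists. Rgcc, a regulator of cell cycle, rose to 13.8, 10.2 and 14.6 RPKM with MPH, against 2.51, 0.974, 1.89 and 0.999 RPKM with DMSO (2.73, SE 0.47, adjusted p = 0.00655). Among the 15 largest falls were signalling genes: Rasgef1b, a Ras-family exchange factor (-2.36, SE 0.40, adjusted p = 0.00632), Rap2b, a small GTPase (-1.47, SE 0.22, adjusted p = 0.00209), Cdc42ep3, an effector of Cdc42 (-1.64), the tyrosine kinase Tec (-1.42) and the scaffold Gab3 (-1.19). The others were the glycosyltransferase B3gnt2 (-1.26), the translation regulator Cpeb4 (-1.23) and the ubiquitin ligase Rnf144b (-1.12). Tgm2, the tissue transglutaminase gene and a marker of alternative activation, was picked after its values were seen and had 187, 258 and 217 RPKM with MPH and 84.9, 66.7, 54.1 and 46.2 RPKM with DMSO (1.83, SE 0.33, adjusted p = 0.00866). Cytip, a regulator of integrin adhesion, was picked in the same way and gave the largest rise that only the paired fit called: 48.8, 25.5 and 28.2 RPKM with MPH, against 4.94, 1.83, 1.58 and 1.92 RPKM with DMSO (paired 3.48, SE 0.10; 21-library adjusted p = 0.0717).

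**Figure D4:**
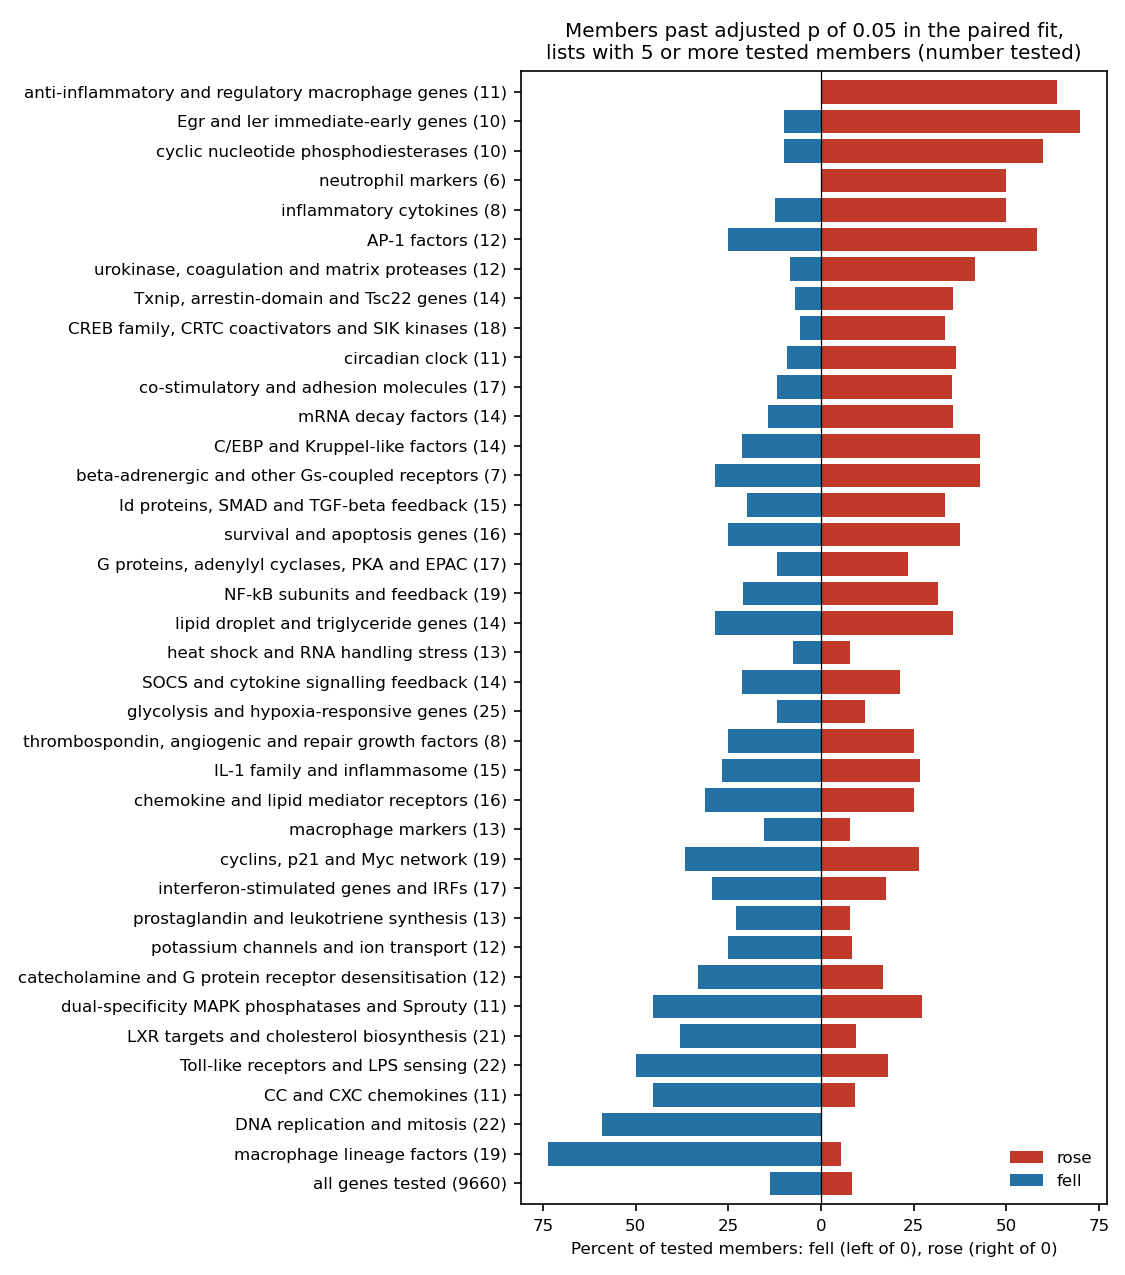
Percent of tested members past an adjusted p of 0.05 in the paired fit for each gene list with at least 5 tested members, with rises to the right of 0 and falls to the left, and all 9660 tested genes in the bottom row for comparison. Macrophage lineage factors and replication genes lie furthest to the left, and regulatory macrophage, Egr and Ier, and phosphodiesterase genes furthest to the right among the lists drawn, which leave out NR4A with 2 tested members.

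The libraries carried macrophage markers at every culture. Of 15 such genes, 13 were at 1 RPKM or more in all 7 libraries, including Csf1r, Adgre1, Cd68 and Mertk. The summed level of all 15 was 6350 to 9170 RPKM with MPH and 6260 to 8690 RPKM with DMSO. In the paired fit Cd14 rose, Mertk and Msr1 fell and 10 did not pass, and scaling ended the call of Mertk. Most markers of other cells were low: below 1 RPKM in all 7 libraries were 9 of 10 T and NK cell genes, 7 of 8 B cell genes, 7 of 8 dendritic cell genes, 9 of 11 stromal and endothelial genes, and 9 of 11 erythroid, mast cell and megakaryocyte genes. The members at 1 RPKM or more in all 7 libraries were Bst2 (30.3 to 224 RPKM with MPH and 30.1 to 219 RPKM with DMSO), Pf4 (16.8 to 66.9 and 17.6 to 57.1 RPKM) and Kdr (2.90 to 7.85 and 3.08 to 10.2 RPKM). Bst2 (difference -0.13), Cd79b (0.25), Kdr (0.06) and Kit (-0.64) were the members with the smallest p in those lists that had one tested, each with adjusted p = 1. The summed level of 14 neutrophil genes was 53.0 to 59.5 RPKM with MPH and 12.9 to 54.2 RPKM with DMSO. D6 was lowest, D5 lay within the MPH range, and the groups overlapped. Within pairs it was higher with MPH each time, at 54.5 RPKM in M2 against 44.9 in D3, 53.0 in M3 against 39.9 in D4, and 59.5 in M4 against 54.2 in D5. None of 11 passed in the 21-library fit (limma, median 0.56, smallest p for Camp, 0.75, adjusted p = 0.67). S100a8 (0.42), Ngp (0.49) and Ltf (0.44) rose in the paired fit. Of the 14 genes 4 were at 1 RPKM or more in all 7 libraries, S100a8, S100a9, Csf3r and Mmp8. Below 1 RPKM in all 7 were 3, Cxcr2, Retnlg and Ly6g, the last at 0.144 RPKM or less in every library. In bulk RNA, more cells of a type and more RNA per cell cannot be told apart. The part of these genes in the other changes was not tested.

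The same genes were followed in the libraries taken after LPS was added. These genes were chosen by their test at 0 h, so smaller later values are a description and no test of a change over time. The 1 h library labelled M4 decides the 1 h result. With it, none of 10239 genes was called at 1 h (limma, 327 at an unadjusted p under 0.05), and the median difference was 0.77 over the 69 risen and -0.52 over the 20 fallen genes. Leaving it out, for how it stood in these same genes, is a choice made on the outcome, so the 1 h values of M2 and M3 that follow are a description. Whether its label is right cannot be told from the files. Of the 69 risen genes, 32 were called higher at 1 h with M2 and M3 (0.88% of all genes tested were), and 7 at 2 h with all 3 MPH cultures (0.479%). The 7 were Cd14, Cnnm2, Crem, Dgat1, Gpn3, Thbs1 and Uck2, and none of the 69 was called lower at either time. The median difference of the 69 was 1.16 at 1 h in M2 and M3 and 0.53 at 2 h. Crem was at 4.19 and 3.61, Thbs1 at 5.70 and 5.16, and Dgat1 at 1.95 and 1.88. By contrast Sik1 was at 0.61 and -0.29, Nuak2 at 0.28 and -0.01, Trib1 at 0.03 and -0.30, and Btg2 at -0.07 and 0.02, none of them called. Pde4b was at 0.81 and 0.30 and Pde4d at 1.65 (called) and 0.82. Of the 20 fallen genes 2, Cpeb4 and Tec, were called lower at 1 h (0.459% of all genes) and 0 at 2 h (0.391%) in limma (930 of all genes had an unadjusted p under 0.05 at 2 h), with medians of -0.68 and -0.30.

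**Figure D5:**
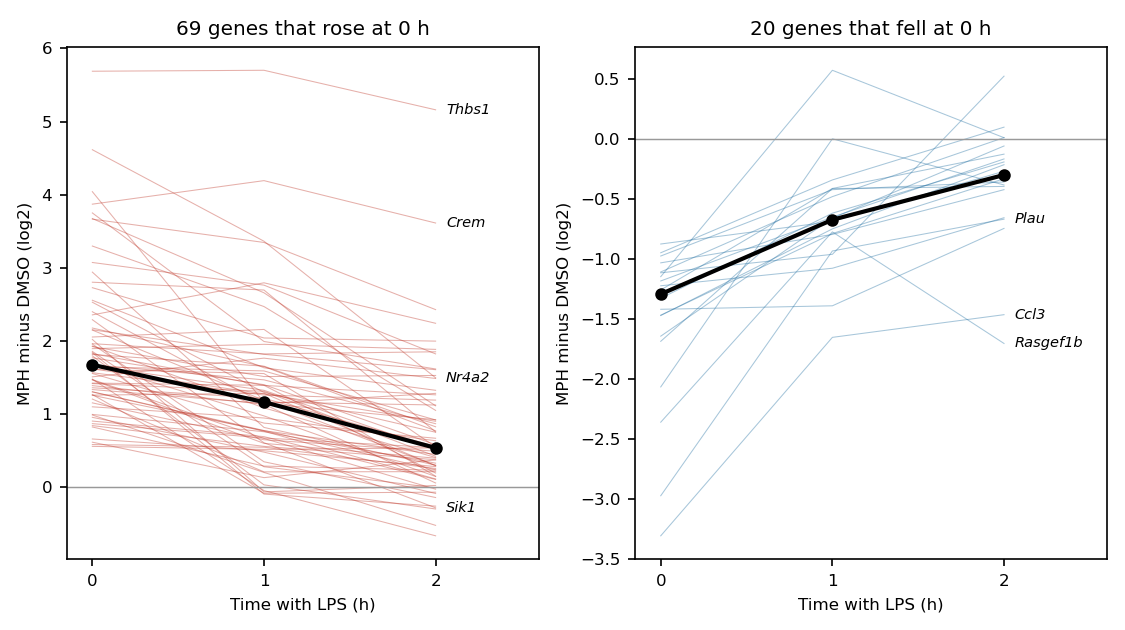
MPH minus DMSO differences (log2, y axis) at 0, 1 and 2 h of LPS (x axis) for the 69 genes that rose and the 20 that fell at 0 h, 1 thin line per gene and the median in black; the 1 h values use M2 and M3 and leave out the library labelled M4. The median of the risen genes was 1.16 at 1 h and 0.53 at 2 h, with Thbs1 and Crem above 3 throughout, and that of the fallen genes was -0.68 and -0.30.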

How the data were processed

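RNA sequencing of mouse bone marrow-derived macrophages was analysed from a table of RPKM values (reads scaled by transcript length and by sequencing depth) computed and deposited by the authors, with 44401 transcript lines and 24761 gene symbols. Per the submitters' processing notes, the tools were FastQC, cutadapt, HISAT2 and SAMtools, with no version stated, and the genome build was mm9. Which program counted reads, and whether it used strand, is not given in the sources used here. Spacing of low values in 6319 transcripts gave an estimate of depth. A count per gene cannot be had exactly from RPKM, so tests used log2 values.

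For each symbol the line with the highest mean over all libraries was kept. A gene was tested if 3 libraries or more held 1 RPKM or more, on log2(RPKM + 0.5) with limma-trend (limma 3.58.1, R 4.3.3), Benjamini-Hochberg adjustment over all tested genes and a threshold of 0.05. The 21-library fit took cultures D3, D4, D5, D6, M2, M3 and M4 at 0, 1 and 2 h, with a mean per treatment and time and no term for culture. The paired fit held the 6 paired 0 h libraries with a term for each pair. The pairs come from shared deviations of the cultures (0.88 to 0.91 at 0 h, 0.74 to 0.85 at 1 h, 0.84 to 0.89 at 2 h), not from the labels. Il1b was also compared by an exact two-sided permutation test of mean differences. A depth of 16000000 reads or more at 0 h makes 1 read worth at most 0.0312 RPKM in a transcript of 2 kb. All other p-values are limma's.

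The groups, 43 gene lists and all tests were chosen with earlier results of these data known; 743 of 744 listed symbols were found, 6 of them under another symbol. Named genes are the 15 that rose most and the 15 that fell most among called genes without overlap between groups, up to 4 members of each list past it or else the member with the smallest p, and Il1b, Adrb1, Adrb3 and the NR4A, phosphodiesterase and CREB lists. Some genes that the rule names are not reported here. Other names were chosen after their values were seen. Before use the fits were run on simulated data with 200 changed genes. The fit with no term for culture recovered 151 of them, with 4 false calls. The paired fit recovered 77, with 4 false calls. These counts do not show that the p-values hold for cultures that vary in pairs or that give several libraries each. RefSeq promoter windows were searched on both strands.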

Additional observations from a re-analysis of the deposited data

Results flagged for a closer look

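In 5 genes a single DMSO culture, D4, stood apart from the other 3 at 0 h by Dixon's gap-to-range ratio, among 91 genes examined. Chance flags about 1 in 20 groups. B3gnt2 was highest in D4 at 19.5 RPKM, with the others at 12.1 to 12.8 RPKM. Pde7b was also highest there, at 3.08 RPKM against 1.36 to 1.53 RPKM. Creb3 was lowest in D4 at 20.8 RPKM, with the others at 27.7 to 29.1 RPKM. Crebbp was lowest there at 2.43 RPKM, against 4.87 to 5.33 RPKM, and Creb3l2 at 0.875 RPKM, against 1.51 to 1.59 RPKM. In the MPH group M3, the partner of D4, likewise held the highest value of B3gnt2 and Pde7b and the lowest of Creb3, Crebbp and Creb3l2.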

How the results depend on the processing

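The count of 89 genes moved by more than 1.5 times under several settings: 2150 with a replicate block over the pairs, 0 with a replicate block by the label numbers (limma, 334 at an unadjusted p under 0.05), 165 without the 1 h library labelled M4, 256 and 213 against all 7 DMSO cultures with and without a covariate, 56 with no filter on low values, and 18 without the cultures D4 and M3, a choice made after seeing the data. Leaving out 1 library at 0 h gave 36 to 76. The other settings gave 78 to 113. The paired count lay between 987 and 2440 with a pair left out. No named gene reversed. Of the 49 named genes past the threshold, the replicate block over the pairs ended 0 calls, the block by label numbers 41, and leaving out D4 and M3 34. Against all 7 DMSO cultures Il1b gave 1.79 with an exact permutation p = 0.025. The fits with fewer libraries have fewer samples by construction; otherwise the cause was not tested. No deposited value was 0, and the depth estimate took unexpressed transcripts to hold the value of 1 read. Levels below about 0.03 RPKM can therefore stand for single reads or for none. At 1 h, 90 genes were called higher and 47 lower without the library labelled M4, and 0 with it (limma, 327 at an unadjusted p under 0.05), an alternative added after seeing the data.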
